A study of Homo sapiens with 2 samples.

Results

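Integrins, laminins, type IV collagens and focal adhesion genes were examined in 468 breast cancer cells, a human line described in the labels as epithelioid. The genes were chosen by name for what they are known to do, with no threshold on the values, and numbered 43, 12 for integrin chains, 8 for laminin chains, 4 for other matrix proteins, 5 for other receptors of the matrix and 14 for adaptors and kinases of the focal adhesion. Values were found for 42 of them among the 13017 genes of the deposited tables, and LAMA1 is not analysed here. Of the 42, 37 averaged 1 FPKM or more over both libraries. FPKM is the number of fragments per length of a gene, scaled to the mapped fragments of its library, so that levels of genes of different length can be set side by side.

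The study set cells transfected with a Smart Silencer against THAP7-AS1, an antisense RNA, beside cells given the negative control si-NC. There was 1 library per group, taken 48 h after transfection, and both came from the same line grown in L15 medium with serum. Since the silencer stands in the treatment label of either sample, the groups follow the genotype label. With 1 library per group no difference has a replicate check, no test of the groups is possible, and each value describes that library. In RNA from a whole culture, fewer cells with a gene on and less RNA per cell cannot be told apart. THAP7-AS1 itself is not analysed here, and THAP7, its overlapping neighbour, was at 8.38 FPKM in knockdown cells and 2.71 FPKM in control cells. The tables hold FPKM without counts, and steps among the lowest values put the depth at about 11100000 fragments in knockdown cells and 10900000 in control cells, an estimate only. The epithelial markers EPCAM, CDH1, KRT8, KRT18 and KRT19 were at 12.4 to 1106 FPKM in knockdown cells and 17.1 to 1057 FPKM in control cells. Of 8 mesenchymal or fibroblast markers 3 were measured, and they summed to 3.17 FPKM in knockdown cells and 2.45 FPKM in control cells. Of 4 endothelial markers KDR was measured, at 1.07 FPKM in knockdown cells and 1.15 FPKM in control cells, and of 4 leukocyte markers CD68 and CD74, with a sum of 3.42 FPKM in knockdown cells and 3.39 FPKM in control cells. The other markers of these classes are not analysed here.

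Epithelial cells hold to the basement membrane through integrins, receptors made of 1 alpha and 1 beta chain. Laminins, which are trimers of an alpha, a beta and a gamma chain, and type IV collagen form the sheet that these receptors bind. Inside the cell, talin and the kindlins bind the beta chain's tail, and vinculin, paxillin, zyxin and the kinases FAK and SRC gather there as a focal adhesion. In hemidesmosomes the integrin of the ITGA6 and ITGB4 chains ties laminin to keratin filaments instead of actin.

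Upstream sequences are shown for the genes whose values the results turn on. COL4A1 and COL4A2, the chains that make up the common type IV collagen trimer, lie head to head, and their RefSeq starts in build GRCh38.p14 were 127 bases apart on chromosome 13. The window of COL4A2, from 250 bases before its start to 50 after it, at chr13:110307034-110307333 on the plus strand, therefore also holds the start of COL4A1, which is read from the minus strand. Capitals mark both starts and the bases between them in the first sequence. The windows of LAMC1, at chr1:183023170-183023469 on the plus strand, and FERMT2, at chr14:52951001-52951300 on the minus strand, belong to the 2 members that differed most between the libraries on the scale of FPKM + 1 among those that averaged 1 FPKM or more. By FPKM as deposited FERMT2 still led, and ITGA2, at 1.67-fold, came before LAMC1. In these the capitals mark GGGCGG, the GC box, or its reverse complement CCGCCC, and neighbouring boxes that share bases run together.
COL4A2: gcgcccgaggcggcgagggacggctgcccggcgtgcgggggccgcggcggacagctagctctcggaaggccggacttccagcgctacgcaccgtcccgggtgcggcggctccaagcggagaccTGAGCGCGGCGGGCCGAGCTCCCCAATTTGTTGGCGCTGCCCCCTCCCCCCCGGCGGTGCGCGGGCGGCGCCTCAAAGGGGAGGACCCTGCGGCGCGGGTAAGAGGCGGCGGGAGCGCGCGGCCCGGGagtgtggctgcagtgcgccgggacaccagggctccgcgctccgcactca
LAMC1: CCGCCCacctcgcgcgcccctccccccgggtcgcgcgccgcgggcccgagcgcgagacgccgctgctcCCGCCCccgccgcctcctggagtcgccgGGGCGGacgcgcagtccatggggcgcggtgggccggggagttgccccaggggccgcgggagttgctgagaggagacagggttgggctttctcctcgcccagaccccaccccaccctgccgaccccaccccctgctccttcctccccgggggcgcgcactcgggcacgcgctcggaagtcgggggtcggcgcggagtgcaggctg
FERMT2: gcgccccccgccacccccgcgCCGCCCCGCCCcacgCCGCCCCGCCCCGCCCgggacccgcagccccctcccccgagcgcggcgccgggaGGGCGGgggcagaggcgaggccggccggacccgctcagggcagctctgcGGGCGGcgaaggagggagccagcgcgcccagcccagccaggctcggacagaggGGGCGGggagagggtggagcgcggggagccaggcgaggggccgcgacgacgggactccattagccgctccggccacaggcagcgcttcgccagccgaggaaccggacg
GGGCGG was searched on both strands. The count of boxes was 8 in the FERMT2 window, 3 in the LAMC1 window and 1 in the COL4A2 window. GC boxes were common, since 45.0% of 35116 RefSeq windows of this length held at least 1. Among the 49 windows found for 33 members the share was higher, at 38 windows or 77.6%. Some members, such as BCAR1, had several windows, and by member 28 of 33 held a box. No share was worked out over windows of other genes expressed in this line, so the difference is no result about the members. The 3 windows shown held 41 to 45 CpG dinucleotides, against a median of 14 over all windows and 27 over the members' windows. The same limit holds for these medians. A PXN window held 50 and the FLNA window 47, and both genes differed between the libraries by less than 1.2-fold. A match in these letters is a description and no evidence of binding, and the windows come from another build than hg19, which the submitters' notes name.

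The integrin receptors of this line were led on the alpha side by ITGAV, ITGA6 and ITGA3 and on the beta side by ITGB1 and ITGB4. ITGAV, the chain shared by receptors of the RGD motif in fibronectin and vitronectin, was at 17.4 FPKM in knockdown cells and 19.0 FPKM in control cells. ITGA6, a laminin receptor chain, was at 15.1 FPKM in knockdown cells and 13.5 FPKM in control cells. ITGA3, the other main laminin receptor chain of epithelia, was at 9.25 FPKM in knockdown cells and 12.8 FPKM in control cells. These chains made up most of the alpha pool in both libraries, with 39.5%, 34.3% and 21.0% of the summed alpha FPKM in knockdown cells and 40.4%, 28.7% and 27.3% in control cells, in the order ITGAV, ITGA6, ITGA3. ITGA2, which with ITGB1 forms a collagen receptor, was at 1.70 FPKM in knockdown cells and 1.01 FPKM in control cells. ITGA5, the partner of ITGB1 in the classical fibronectin receptor, was at 0.579 FPKM in knockdown cells and 0.644 FPKM in control cells. ITGA1, another collagen receptor chain, was near the lowest values of the tables, at 0.031 FPKM in knockdown cells and 0.034 FPKM in control cells. It shares exons on the same strand with PELO, at 3.35 FPKM in knockdown cells and 3.45 FPKM in control cells, and how reads of the pair were divided between them is not stated.

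ITGB1, the beta chain with the most partners, was at 37.8 FPKM in knockdown cells and 38.9 FPKM in control cells. It took 46.4% of the summed beta FPKM in knockdown cells and 43.2% in control cells. ITGB4, whose long cytoplasmic tail binds plectin in hemidesmosomes, was at 19.2 FPKM in knockdown cells and 24.6 FPKM in control cells. Of the beta chains that pair with ITGAV alone, ITGB5 was at 10.4 FPKM in knockdown cells and 12.2 FPKM in control cells. ITGB6, an epithelial chain known for activating latent TGF-beta, was close to it, at 9.55 FPKM in knockdown cells and 10.4 FPKM in control cells. ITGB8, which shares that role, was at 4.23 FPKM in knockdown cells and 3.61 FPKM in control cells. ITGB3, the remaining partner of ITGAV and also a platelet chain, was at 0.217 FPKM in knockdown cells and 0.337 FPKM in control cells. Of 14 other integrin chains looked for, 2 were measured, and the rest are not analysed here. ITGAE was at 2.79 FPKM in knockdown cells and 2.35 FPKM in control cells. ITGA2B was at 0.858 FPKM in knockdown cells and 0.510 FPKM in control cells.

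**Figure D1:**
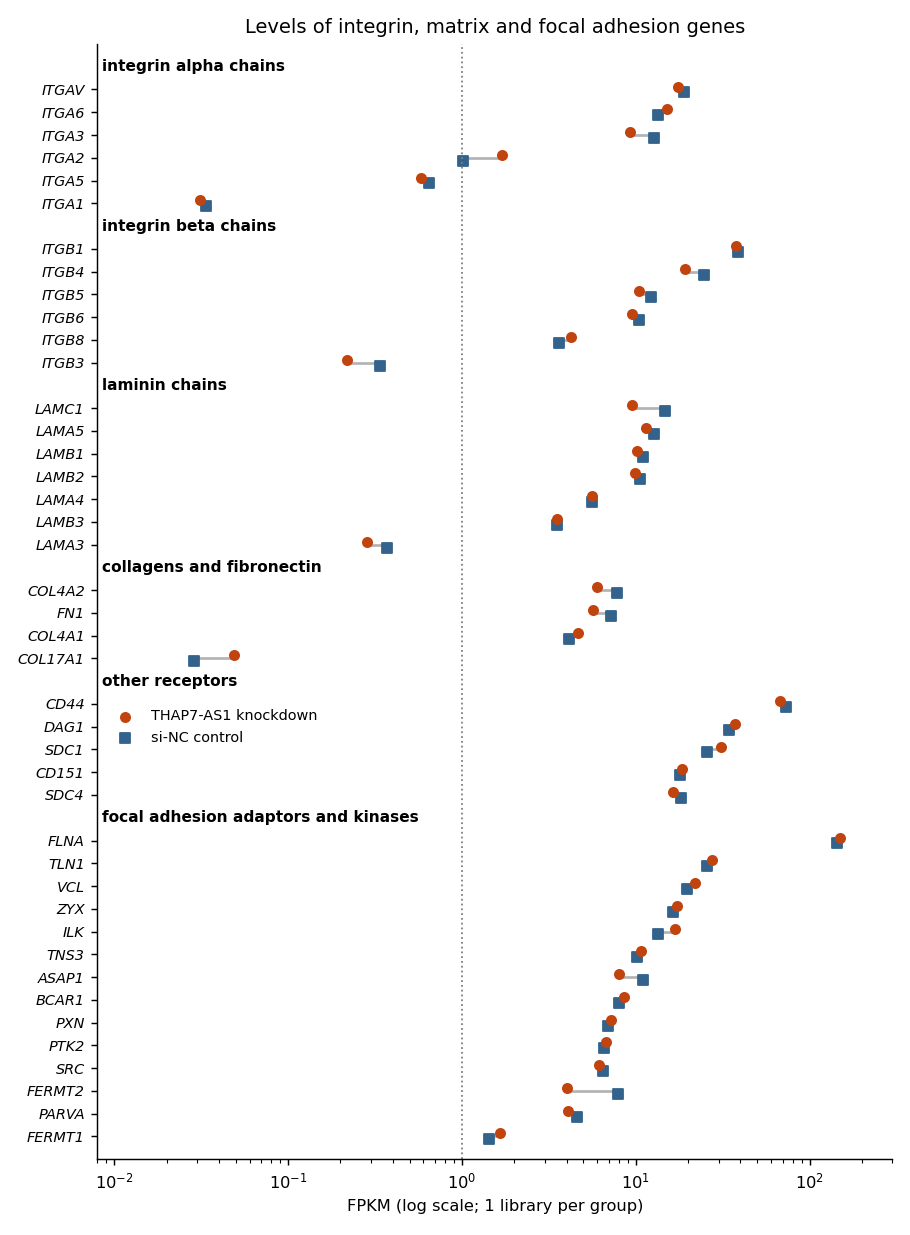
FPKM of the 42 measured genes on a log axis, by role, with circles for the knockdown library and squares for the control library (1 library each); the dotted line marks 1 FPKM. FLNA is highest, at 151 and 144 FPKM in the knockdown and control libraries, and ITGA1, ITGA5, ITGB3, LAMA3 and COL17A1 lie left of 1 FPKM in both.

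The laminin chains expressed were those of the trimers with LAMA5 or LAMA4, LAMB1 or LAMB2 and LAMC1. LAMA5, the main laminin alpha chain of adult epithelial basement membranes, was at 11.4 FPKM in knockdown cells and 12.7 FPKM in control cells, and it made up 66.0% of the measured alpha chains in knockdown cells and 68.0% in control cells. LAMA4, better known from vessel walls and mesenchymal tissue, was at 5.596 FPKM in knockdown cells and 5.58 FPKM in control cells. LAMA3, the alpha chain of the laminin that anchors hemidesmosomes, was at 0.286 FPKM in knockdown cells and 0.369 FPKM in control cells. LAMB3, the beta chain of that trimer, stood higher, at 3.51 FPKM in knockdown cells and 3.502 FPKM in control cells. LAMA3 over LAMB3 was therefore 0.081 in knockdown cells and 0.105 in control cells. The estimated counting error on this ratio's change between libraries was 0.37 on the log2 scale, and the change itself was -0.37.

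LAMB1 and LAMB2, alternative beta chains of the LAMC1 trimers, were nearly level. LAMB1 was at 10.2 FPKM in knockdown cells and 10.97 FPKM in control cells, and LAMB2 was at 9.88 FPKM in knockdown cells and 10.6 FPKM in control cells. LAMB1 over LAMB2 was 1.03 in each library, the chain ratio that differed least between them. LAMC1, the gamma chain of most laminins, was at 9.49 FPKM in knockdown cells and 14.7 FPKM in control cells, a log2 ratio of -0.58. Ratios to LAMC1 were accordingly higher in knockdown cells. LAMB1 over LAMC1 was 1.07 in knockdown cells and 0.746 in control cells, and LAMA5 over LAMC1 was 1.203 in knockdown cells and 0.862 in control cells. The summed laminin alpha chains stood to LAMC1 at 1.82 in knockdown cells and 1.27 in control cells, and the summed beta chains at 2.48 in knockdown cells and 1.71 in control cells. These ratios share LAMC1 and are not separate observations of it.

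COL4A1, which shares the upstream stretch printed above with COL4A2, was at 4.63 FPKM in knockdown cells and 4.15 FPKM in control cells. COL4A2 was at 5.95 FPKM in knockdown cells and 7.83 FPKM in control cells. COL4A1 was higher and COL4A2 lower in knockdown cells, so that COL4A1 over COL4A2 was 0.778 there and 0.530 in control cells. The change was 0.55 on the log2 scale, with an estimated counting error of 0.15 that covers fragments only. FN1, fibronectin, was at 5.67 FPKM in knockdown cells and 7.22 FPKM in control cells, well above its receptor chain ITGA5 in both. COL17A1, a transmembrane collagen of hemidesmosomes, was at 0.049 FPKM in knockdown cells and 0.029 FPKM in control cells, estimated at 3.1 fragments in knockdown cells and 1.8 in control cells. No fold is given for COL17A1 because its values in both libraries rest on so few fragments.

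**Figure D2:**
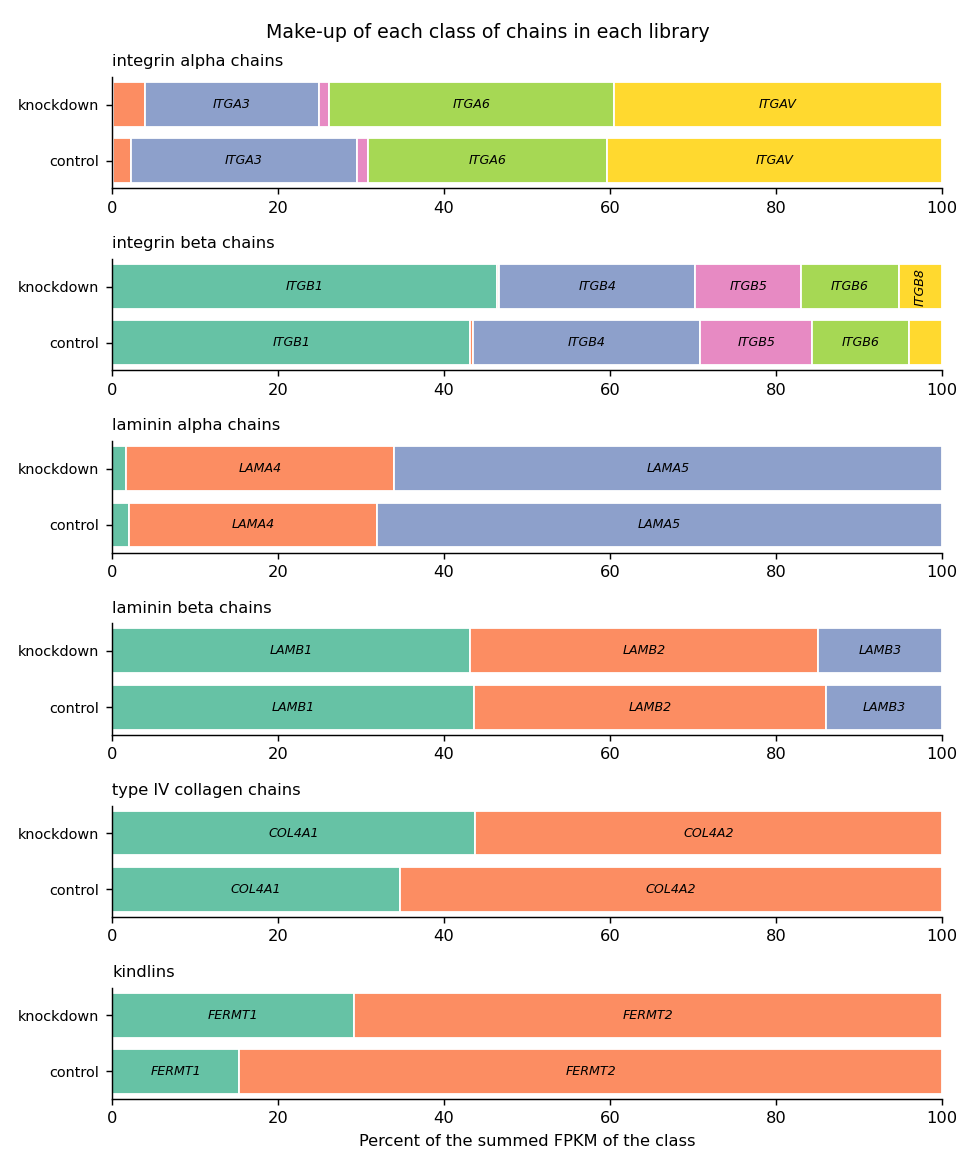
Share of each chain in the summed FPKM of its class, in percent, with the knockdown library above the control library in each panel (1 library each). ITGAV holds 39.5% and 40.4% of the alpha pool in the knockdown and control libraries, while ITGA3 and ITGA6, COL4A1 and COL4A2, and FERMT1 and FERMT2 divide their pools differently; chains with very small shares are not lettered.

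Among the other receptors of the matrix, all 5 were above 10 FPKM in both libraries. CD44, the hyaluronan receptor, was the second most abundant member, at 67.4 FPKM in knockdown cells and 73.5 FPKM in control cells. DAG1, which encodes dystroglycan, a laminin receptor outside the integrin family, was at 37.1 FPKM in knockdown cells and 34.4 FPKM in control cells, close to ITGB1. SDC1, the heparan sulfate proteoglycan syndecan of epithelia, was at 30.9 FPKM in knockdown cells and 25.7 FPKM in control cells. SDC4, the syndecan found in focal adhesions, was at 16.49 FPKM in knockdown cells and 18.1 FPKM in control cells. SDC1 over SDC4 was 1.87 in knockdown cells and 1.42 in control cells. CD151, a tetraspanin that binds the laminin receptors of ITGA3 and ITGA6, was at 18.5 FPKM in knockdown cells and 17.9 FPKM in control cells. On the scale of FPKM + 1 all 5 differed between the libraries by less than 1.2-fold, as did 74.1% of all genes. SDC1, at 1.203-fold in FPKM as deposited, lay at that bound. Values of CD44 and of ITGA6 are sums over splice forms, which these tables do not separate.

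The adaptors and kinases all passed 1 FPKM, and 11 of 14 differed by less than 1.2-fold, beside 74.1% of all genes. FLNA, the actin crosslinker filamin A, was the most abundant member, at 151 FPKM in knockdown cells and 144 FPKM in control cells. TLN1, talin, was at 27.5 FPKM in knockdown cells and 25.8 FPKM in control cells. VCL, vinculin, which binds talin under tension, was at 21.9 FPKM in knockdown cells and 19.8 FPKM in control cells. TLN1 and VCL thus came next after FLNA within this class in both libraries. ZYX, zyxin, was at 17.4 FPKM in knockdown cells and 16.4 FPKM in control cells. ILK, the pseudokinase that joins kindlin to parvin, was at 16.9 FPKM in knockdown cells and 13.4 FPKM in control cells, a log2 ratio of 0.31 and the highest of the class. PARVA, its parvin partner, was at 4.06 FPKM in knockdown cells and 4.60 FPKM in control cells. TNS3, a tensin, was at 10.7 FPKM in knockdown cells and 10.2 FPKM in control cells.

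The kinases and scaffolds of adhesion signalling lay within a narrow band of levels. PTK2, which encodes FAK, was at 6.74 FPKM in knockdown cells and 6.53 FPKM in control cells, and SRC was at 6.19 FPKM in knockdown cells and 6.49 FPKM in control cells. PXN, paxillin, was at 7.24 FPKM in knockdown cells and 6.91 FPKM in control cells, and BCAR1, the FAK and SRC substrate p130Cas, was at 8.51 FPKM in knockdown cells and 8.02 FPKM in control cells. Their log2 ratios ran from -0.06 for SRC to 0.08 for BCAR1. ASAP1, an Arf GTPase-activating protein of focal adhesions, stood apart from them at 8.003 FPKM in knockdown cells and 11.02 FPKM in control cells, a log2 ratio of -0.42.

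The kindlins gave the largest difference of the list. FERMT2, the kindlin of most adherent cells, was at 4.02 FPKM in knockdown cells and 7.87 FPKM in control cells, a log2 ratio of -0.82. FERMT1, the epithelial kindlin, was at 1.65 FPKM in knockdown cells and 1.42 FPKM in control cells. FERMT2 was therefore the more abundant kindlin in both libraries, with 70.9% of their sum in knockdown cells and 84.7% in control cells. FERMT1 over FERMT2 was 0.411 in knockdown cells and 0.181 in control cells. The estimated fragments behind FERMT2 were 150.0 in knockdown cells and 289 in control cells, and the estimated counting error of its log2 FPKM ratio was 0.15.

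**Figure D3:**
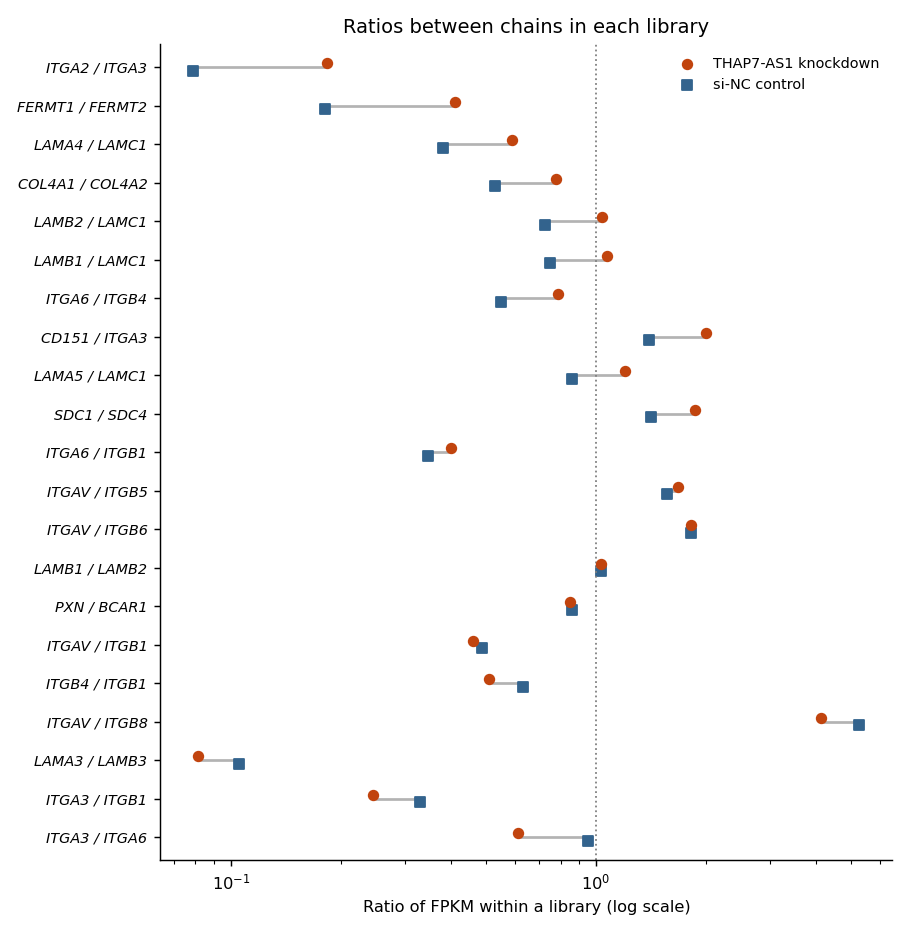
Ratio of the FPKM of the first gene to that of the second within each library, on a log axis, for 21 of the 26 pairs. Circles mark the knockdown library and squares the control library. Pairs run from those most above control in knockdown cells, at the top, to those most below it. Pairs with very unequal levels in both libraries are left out. LAMB1 over LAMB2 lies at 1.03 in each, while FERMT1 over FERMT2 is 0.411 in knockdown cells and 0.181 in control cells.

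Ratios were set out for 27 pairs of members, and 26 had values. They were chains that join in a heterodimer or trimer, related genes, and the pairs of CD151 with ITGA3 and of PXN with BCAR1. Of the 26, 9 differed between the libraries by less than 1.2-fold. Of the ITGAV pairs, those with ITGB1, ITGB5 and ITGB6 were among these, with ITGAV over ITGB6 at 1.82 in each library and ITGAV over ITGB5 at 1.67 in knockdown cells and 1.56 in control cells. The pairs with ITGB8 and ITGB3 differed more. ITGAV over ITGB8 was 4.12 in knockdown cells and 5.26 in control cells. ITGAV over ITGB3 was 80.3 in knockdown cells and 56.3 in control cells, a change of 0.51 on the log2 scale with an estimated counting error of 0.60. The summed partners of ITGAV other than ITGB1 came to 1.40 times ITGAV in each library. The alpha chains that can pair with ITGB1 together came to 1.17 times ITGB1 in knockdown cells and 1.21 times in control cells, although ITGA6 and ITGAV also pair with other beta chains. The laminin receptor chains divided differently. ITGA3 over ITGA6 was 0.610 in knockdown cells and 0.950 in control cells, a change of -0.64 on the log2 scale with an estimated counting error of 0.11. ITGA6 over ITGB4 was 0.788 in knockdown cells and 0.549 in control cells. ITGB4 thus exceeded ITGA6 in each library, although ITGA6 also pairs with ITGB1. ITGB4 over ITGB1 was 0.509 in knockdown cells and 0.632 in control cells. Among the scaffolds, PXN over BCAR1 was 0.851 in knockdown cells and 0.862 in control cells. ITGA2 over ITGA3 was 0.183 in knockdown cells and 0.079 in control cells, with ITGA2 near 1 FPKM and the counting error at 0.21. CD151 over ITGA3 was 1.997 in knockdown cells and 1.40 in control cells, and it shares ITGA3 with the ratios before it. The counting errors cover fragments only, since the spread between cultures cannot be measured with 1 library per group. Over all genes the spread of a single gene's log2 ratio of FPKM + 1, as an SD from the median absolute deviation, was 0.21. A pair joins 2 such ratios, so the counting error alone understates how far its change can vary. No share was worked out over other gene pairs, so the 9 of 26 is no result about the members.

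Differences between the libraries were sized on the scale log2(FPKM + 1), which understates the change of low genes. Of the 37 members that passed the filter, 0 were at least 2-fold higher and 0 at least 2-fold lower in knockdown cells, where 0.604% and 0.668% of 10925 genes were. At 1.5-fold 0 members were higher, beside 2.98% of all genes, and 1 was lower, FERMT2, beside 2.46% of all genes. LAMC1 lay just inside 1.5-fold on this scale. It was past it with a pseudocount of 0.1, at -0.63, on a common sum, at -0.62, and in the 3 other scalings, at -0.59 to -0.60. ITGA2 was past it at 0.69 with a pseudocount of 0.1 and 0.64 on a common sum, and FERMT2 was short of it at -0.51 with a pseudocount of 5. These counts lie near the background shares and are no result about the members as a group. Under 1.2-fold lay 28 of 37 members and 74.1% of all genes. The median log2 ratio of the 37 was 0.002, beside 0.02 over all genes, with 19 members above 0 and 18 below. A cut of 0.4 served to pick members for naming in full. No share of all genes past it was worked out, so it gives no result about the members. Beyond 0.4 in either direction were ITGA2 at 0.42, ITGA3 at -0.43, ASAP1 at -0.42, LAMC1 at -0.58 and FERMT2 at -0.82. At these levels the spread of log2 ratios over all genes, as an SD from the median absolute deviation, was 0.25 for 1 to 2 FPKM, 0.22 for 5 to 10 FPKM and 0.20 for 10 to 20 FPKM. CDH1, the epithelial cadherin and no member, was at 12.4 FPKM in knockdown cells and 17.1 FPKM in control cells, a log2 ratio of -0.43, while the other epithelial markers were at 0.05 to 0.27, and whether this bears on the members was not tested.

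By role, the medians of the matrix and integrin beta chains lay below 0 and that of the adaptors above 0, by small amounts. They rest on 3 to 14 genes, beside a single-gene spread of 0.21 over all genes, and are no result about the roles. The wider list of focal adhesion adaptors, described further on, had a median of -0.02 with 19 of 42 above 0. The beta chains had a median log2 ratio of -0.12 with 4 of 5 below 0, the laminins -0.10 with 4 of 6 below 0 and the collagens with fibronectin -0.30 with 2 of 3 below 0. The adaptors and kinases had a median of 0.06 with 10 of 14 above 0, the other receptors 0.04 with 3 of 5 above 0 and the alpha chains 0.02 with 2 of 4 above 0. Summed FPKM of the measured laminin chains was 50.3 in knockdown cells and 58.4 in control cells, and without LAMC1 the remaining laminins ran from -0.14 to 0.003 in log2 ratio. The sign of each of these medians was the same under the 4 other scalings tried. Over all genes 53.1% lay above 0. Centring on the median of all genes, which lowers every ratio by 0.02, put LAMA4 and LAMB3 below 0, and no other member changed sign in that setting. Exons of CD151, ILK, LAMA5, LAMB1, TLN1, VCL and ZYX overlap those of a measured gene on the opposite strand, from which reads cannot be told apart when strand is not stated. VCL overlaps AP3M1, at 6.06 FPKM in knockdown cells and 9.38 FPKM in control cells, and TLN1 overlaps CREB3, at 19.96 FPKM in knockdown cells and 14.9 FPKM in control cells.

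**Figure D4:**
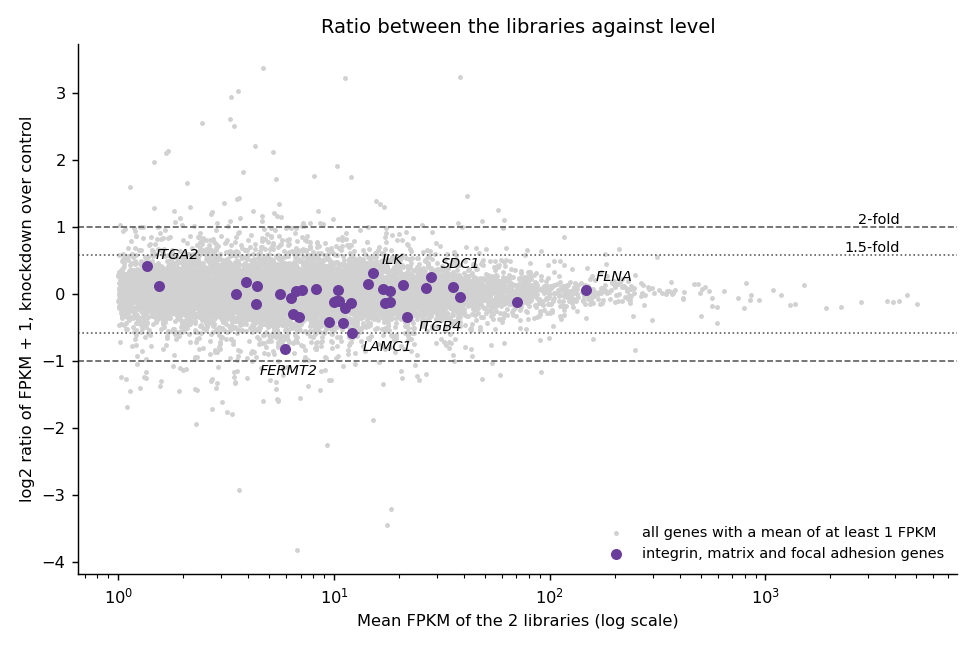
Log2 ratio of FPKM + 1, knockdown over control, against the mean FPKM of the 2 libraries on a log axis; grey points are the 10925 genes that averaged 1 FPKM or more and dark points the 37 members among them. FERMT2, at -0.82, is the member beyond the dotted 1.5-fold line, and no member reaches the dashed 2-fold line.

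The wider machinery of cell-matrix adhesion was described with 10 further lists, of whose genes 157 were measured and 132 passed 1 FPKM. Among the 132, 2 were at least 2-fold lower in knockdown cells, where 0.668% of all genes were, and the median log2 ratio was -0.03. This count was 3 with a pseudocount of 0.1 or a common sum, 1 at a mean of at least 5 FPKM and 0 with a pseudocount of 5. The 2 lower genes were both focal adhesion adaptors. LASP1, a LIM and SH3 protein that binds actin and zyxin, was at 15.1 FPKM in knockdown cells and 32.6 FPKM in control cells, a log2 ratio of -1.06. LPP, a zyxin family protein, was at 0.930 FPKM in knockdown cells and 3.20 FPKM in control cells, a log2 ratio of -1.12. PDLIM5, a PDZ and LIM protein, was at 2.32 FPKM in knockdown cells and 4.997 FPKM in control cells. Over the whole list of adaptors the median was -0.02, with 19 of 42 above 0, and GRB2, the adaptor that couples receptors to RAS, stood on the other side at 30.1 FPKM in knockdown cells and 16.4 FPKM in control cells. The alpha-actinins, which crosslink actin, were the most abundant adaptors. ACTN4 was at 121 FPKM in knockdown cells and 127 FPKM in control cells, and ACTN1 was at 42.0 FPKM in knockdown cells and 44.9 FPKM in control cells.

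Among focal adhesion kinases, phosphatases and GTPase regulators, 12 of 30 lay above 0, with a median of -0.05. RAC1, the GTPase of lamellipodia, was at 96.8 FPKM in knockdown cells and 60.6 FPKM in control cells, and CSK, the kinase that holds SRC inactive, was at 14.04 FPKM in knockdown cells and 9.46 FPKM in control cells. PTPN12, a phosphatase of p130Cas, was at 13.1 FPKM in knockdown cells and 20.6 FPKM in control cells. ARHGAP35, a GTPase-activating protein, was at 17.96 FPKM in knockdown cells and 25.97 FPKM in control cells. RHOA itself was at 108 FPKM in knockdown cells and 124 FPKM in control cells. At 1.5-fold, 1 of the 30 was higher, RAC1, beside 2.98% of all genes, and 1 was lower, PTPN12, beside 2.46%. These counts lie near the background shares and are no result about the list. ARHGEF6, an exchange factor for RAC1 placed among the adaptors and named after its value was seen, had a log2 ratio of 0.72. ARHGEF7, DOCK1 and ELMO2 of the adaptor list lay near 0, at 0.05, 0.07 and -0.09. Whether any of these bears on RAC1 was not tested.

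Basement membrane genes outside the list had 2 of 7 above 0 and a median of -0.06. NTN4, a netrin that binds laminin gamma chains, was the most abundant of them at 40.7 FPKM in knockdown cells and 37.0 FPKM in control cells. TINAGL1 followed at 30.2 FPKM in knockdown cells and 31.5 FPKM in control cells. AGRN, agrin, was at 21.6 FPKM in knockdown cells and 27.1 FPKM in control cells, and the collagen gene COL18A1 was at 5.95 FPKM in knockdown cells and 7.57 FPKM in control cells. HSPG2, perlecan, was at 1.92 FPKM in knockdown cells and 2.39 FPKM in control cells. Of the genes that modify collagen, 5 of 10 lay above 0. LOXL2, a lysyl oxidase that crosslinks type IV collagen, was at 13.0 FPKM in knockdown cells and 23.3 FPKM in control cells, a log2 ratio of -0.79. SERPINH1, the collagen chaperone, was at 8.004 FPKM in knockdown cells and 12.1 FPKM in control cells, while P4HB, a subunit of prolyl hydroxylase, was at 67.2 FPKM in knockdown cells and 49.6 FPKM in control cells. P4HA2, a catalytic subunit of that enzyme, was at 2.07 FPKM in knockdown cells and 1.65 FPKM in control cells. COLGALT1, a collagen galactosyltransferase, was at 45.5 FPKM in knockdown cells and 46.3 FPKM in control cells.

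Of the hemidesmosome partners, PLEC and KRT5 stood far above COL17A1 and LAMA3, and the other 3 lay between 3 and 7 FPKM. PLEC, plectin, was at 44.2 FPKM in knockdown cells and 40.5 FPKM in control cells, and KRT5, the basal keratin, was at 64.0 FPKM in knockdown cells and 55.6 FPKM in control cells. KRT14, its partner, was at 5.94 FPKM in knockdown cells and 3.25 FPKM in control cells. DST, the gene of the plakin dystonin, was at 4.18 FPKM in knockdown cells and 3.57 FPKM in control cells. ERBIN, which binds ERBB2, was at 5.08 FPKM in knockdown cells and 6.38 FPKM in control cells, and the other 4 genes of the 5 had log2 ratios above 0. Of other integrin ligands, 5 of 9 lay above 0. CCN1 led them at 15.3 FPKM in knockdown cells and 11.1 FPKM in control cells, followed by THBS1, thrombospondin, at 6.88 FPKM in knockdown cells and 5.45 FPKM in control cells. LTBP1, a latent TGF-beta binding protein, was at 3.66 FPKM in knockdown cells and 4.80 FPKM in control cells, and the collagen gene COL5A2 was at 1.56 FPKM in knockdown cells and 1.07 FPKM in control cells. Among other receptors and tetraspanins, 6 of 13 lay above 0, with RPSA, a ribosomal protein also described as a laminin receptor, at 110 FPKM in knockdown cells and 99.5 FPKM in control cells. BCAM, a laminin receptor for LAMA5, was at 27.2 FPKM in knockdown cells and 24.2 FPKM in control cells, and DDR1, a collagen receptor kinase, was at 15.9 FPKM in knockdown cells and 13.98 FPKM in control cells. HMMR, a hyaluronan receptor also found on the spindle, was at 36.5 FPKM in knockdown cells and 38.5 FPKM in control cells. CD82, a tetraspanin, was at 29.1 FPKM in knockdown cells and 25.5 FPKM in control cells, and GPC4, a glypican, was at 5.81 FPKM in knockdown cells and 7.29 FPKM in control cells. Of the genes that glycosylate dystroglycan or join it at the membrane, 4 of 15 lay above 0. The sarcoglycans SGCB and SGCE lay on opposite sides of 0. SGCB was at 3.73 FPKM in knockdown cells and 5.96 FPKM in control cells, and SGCE was at 8.34 FPKM in knockdown cells and 6.69 FPKM in control cells. The glycosyltransferases POMGNT2 and B4GAT1 were lower in knockdown cells, by less than 1.5-fold. POMGNT2 was at 4.98 FPKM in knockdown cells and 7.03 FPKM in control cells, and B4GAT1 was at 9.13 FPKM in knockdown cells and 12.4 FPKM in control cells.

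**Figure D5:**
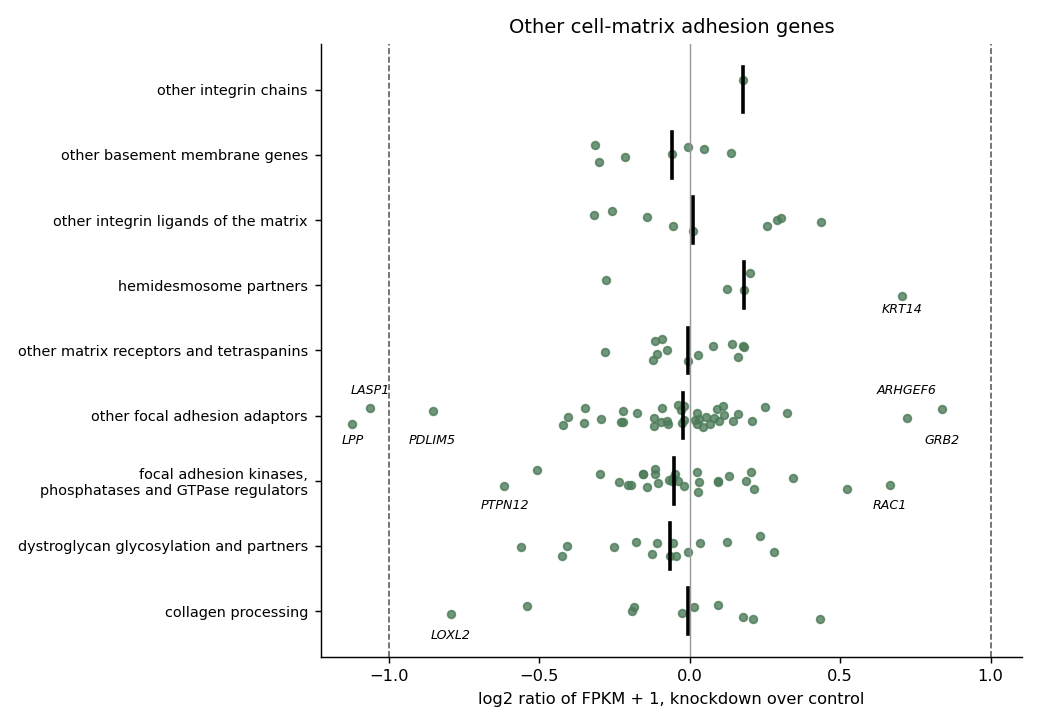
Log2 ratio of FPKM + 1, knockdown over control, for the 132 further genes that passed 1 FPKM, by list; each point is a gene, thick bars are list medians, dashed lines mark 2-fold, and genes beyond 1.5-fold are named. Most points lie near 0, with LPP and LASP1 left of the 2-fold line.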

How the data were processed

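RNA was sequenced from 1 knockdown and 1 control sample of the 468 line. Per the file headers, the values that the authors deposited are FPKM, in a table for each library. Per the submitters' processing notes, which give no roles, the build was hg19 and the tools were StringTie, HISAT2 2.0.5 and cutadapt. Other versions, annotation and strandedness: not given in the sources used here. Identifiers without their version were matched to symbols. Log2 ratios were log2((knockdown FPKM + 1)/(control FPKM + 1)), over genes that averaged 1 FPKM or more, and a size of at least 2-fold stood in for a test; chain ratios used FPKM as deposited. The members and all lists were chosen with earlier results of these data known. All members are named, and of each further list up to 4 genes with the largest ratios and the 2 most abundant. ARHGEF6, ARHGEF7, DOCK1 and ELMO2 are named outside this rule. Some genes of these lists are not reported here and are left out of the lists' counts, medians and figure.

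Depth was estimated from genes with a single transcript in GENCODE 29. Only values of FPKM times length from 80 to 100 were kept, a window set after the values had been seen. Their median was 89.7 in the knockdown library over 14 genes and 91.4 in the control library over 10 genes. The window bounds this median by construction, so it is no evidence that values gather there. The median was taken as the step of 1 fragment. Counting errors, 0.017 to 0.22 on the log2 FPKM scale for members that passed the filter, follow from it and from the length of the principal transcript. They leave out all variation between cultures. Promoter windows came from RefSeq, and 33 members had at least 1. Python 3.11.15, numpy 2.4.6, pandas 2.3.3 and matplotlib 3.10.9 were used, and the ratio step was tested on simulated data. Alternatives changed the pseudocount, filter, scaling and fold.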

Additional observations from a re-analysis of the deposited data

How the results depend on the processing

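Over all genes, 66 were 2-fold higher and 73 lower; the counts were 140 and 126 at a pseudocount of 0.1, 124 and 116 on a common sum per library (where 1 weighs less by construction), 19 and 14 with a pseudocount of 5, 31 and 36 at a mean of at least 5 FPKM, 326 and 269 at 1.5-fold and 20 and 15 at 3-fold. Members at least 2-fold apart stayed at 0 in either direction under every pseudocount, filter and scaling tried and at 3-fold, and 1 was lower at 1.5-fold. The median of the members ran from -0.06 to 0.006. Changes of pseudocount or scaling gave 222 member ratios, and 219 stayed within the spread of genes at their level. FERMT2 was at -0.51 and ITGA2 at 0.16 with a pseudocount of 5, and ITGA2 at 0.69 with 0.1. LAMA4 and LAMB3, at 0.003 and 0.002, fell below 0 in 3 scalings. Of 104 chain ratios recomputed, 86 moved by less than that spread, and 17 of the 18 others came from adding 1 to FPKM, which by construction draws ratios of low chains towards 1. No paired analysis was possible because each group has 1 library. Depth limits ITGA1, COL17A1 and ITGB3 most.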
